A study of Homo sapiens with 12 samples.

Results

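The integrated stress response genes examined here are ATF4 and 37 genes that work beside it or are known to be switched on by it. They were chosen by symbol, with earlier results of these data known, and 38 of the 56634 gene symbols in the table matched. They comprise 5 stress transcription factors, 8 stress response effectors, 7 enzymes of serine and one-carbon synthesis, 7 other enzymes of amino acid synthesis and carbon supply, 9 amino acid transporters, and a pair made of a tRNA export factor and a mitochondrial protease. Of the 38, 35 passed the filter on low counts and were tested. NUPR1 and VLDLR had at most 4 and 3 counts in any library, and CBS had 0 counts in all 12. CBSL, a gene annotated as a copy of CBS, also had 0 counts in every library, and how reads that map to both were treated is not given in the sources used here, so the level of CBS cannot be read from this table.

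ATF4 is a transcription factor that cells translate preferentially when eIF2, the factor that brings the initiator tRNA to ribosomes, is phosphorylated. The kinase GCN2 does this when amino acids run short and PERK does it when the endoplasmic reticulum is stressed. ATF4 binds C/EBP-ATF response elements with partner bZIP factors and raises genes that import and make amino acids. Since ATF4 is controlled largely at translation, the level of its mRNA is not a measure of its protein.

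RNA came from HCT116 cells, an established human colorectal carcinoma line, in 4 groups of 3 biological replicates. Cells given TNF plus Senexin B had 1 µM Senexin B for 1 hour and then TNF-alpha (TNF), a cytokine that activates NF-kB, at 10 ng/mL for 2 hours. TNF cells had 0.1% DMSO for 1 hour and then TNF at the same dose and time, Senexin B cells had 1 µM of the inhibitor for 3 hours, and control cells had 0.1% DMSO for 3 hours. Senexin B inhibits CDK8 and CDK19, the kinases of the Mediator complex, and the series asked what this does to transcription with and without TNF. In bulk RNA, a change in every cell and a change in a share of cells cannot be told apart.

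Totals ran from 5835226 counts (TNF replicate 1) to 9281176 (Senexin B replicate 3). NFKBIA, an NF-kB target, averaged 295 ± 4.63 CPM (counts scaled to a total of 1000000) with TNF and 25.3 ± 0.237 in control (SD, n = 3 each, here and below), and the kinase genes themselves gave no call with Senexin B, with CDK8 at 0.06 ± 0.07 (edgeR adjusted p = 0.797) and CDK19 at -0.08 ± 0.09 (edgeR adjusted p = 0.775) on the log2 scale. Of 12 epithelial markers, 9 had counts and VIL1, CDX1 and CEACAM5 were at 0. The epithelial markers summed to between 4073 and 4832 CPM over the 12 libraries, the 8 fibroblast markers to between 7.46 and 11.2 CPM, and the 9 blood cell markers to at most 0.674 CPM. TNF replicate 1 and control replicate 1 stood apart: chi-square per degree of freedom was 2.72 and 2.45 between TNF replicate 1 and the other TNF libraries, which gave 1.24 between them, and 2.62 and 2.76 for control replicate 1, beside 1.35 between the other control libraries. In TNF replicate 1 the deviation from the other TNF libraries correlated across genes with transcript GC content (Spearman's rho = -0.52, a description, since genes share a library), while control replicate 1 gave -0.16. In the same measure TNF replicates 2 and 3 gave 0.37 and 0.33, and control replicates 2 and 3 gave -0.06 and 0.24. Each library is set against the others of its group, so values within a group depend on each other. Over 12223 genes the log2 fold change followed GC content with a rho of -0.41 for TNF against control, 0.37 for TNF plus Senexin B against TNF, 0.29 for the interaction, -0.18 when both agents were set against the inhibitor alone, and 0.09 for Senexin B against control. The tested stress genes had a median GC content of 52.3%, against 48.4% for all tested genes with a known value.

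Promoter windows are given first, because the element that ATF4 binds is known in several of these genes. RefSeq windows from 250 bases before to 50 bases after the gene start (build GRCh38.p14) were found for 30 of the 38 genes, and not for ALDH1L2, EIF4EBP1, GPT2, NUPR1, PSPH, PYCR1, SHMT2 and SLC7A11. The core of the C/EBP-ATF response element, TGATGNAA with N for any base, was searched on both strands. It was found in 7 of the 30 windows (23.3%), and in 1270 of all 35116 windows (3.62%). Among genes that passed the filter on low counts, 144 of 9463 windows held it (1.52%), 7 of them among the 28 of the stress genes. The longer motif TGATGNAAT was found in 1 of them, MTHFD1L. The 38 genes were picked for known ties to ATF4, and both they and the motif with earlier results of these data known. A higher share among them was therefore built into the choice, and the difference was not tested. Capitals mark the match in the sequences that follow, which read 5′ to 3′ on the strand of the gene. The ASNS sequence holds the element long known as the nutrient-sensing site of that gene, and the CHAC1 sequence is shown because CHAC1 had the largest fitted increase with Senexin B among the stress genes. Both cover the 250 bases before the RefSeq gene start. They lie at chr7:97872409-97872658 on the minus strand for ASNS and chr15:40953221-40953470 on the plus strand for CHAC1. GENCODE places the gene starts elsewhere, at chr7:97872542 for ASNS and chr15:40952962 for CHAC1. By those starts the ASNS match and the whole CHAC1 sequence lie inside the gene. In the CHAC1 sequence the match lies on the opposite strand, so the capitals are the complement of the motif read backwards.
ASNS: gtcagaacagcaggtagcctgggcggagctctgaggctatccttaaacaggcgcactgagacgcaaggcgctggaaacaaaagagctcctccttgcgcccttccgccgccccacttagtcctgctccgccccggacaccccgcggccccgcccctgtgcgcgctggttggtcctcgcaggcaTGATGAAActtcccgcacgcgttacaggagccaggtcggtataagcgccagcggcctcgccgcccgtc
CHAC1: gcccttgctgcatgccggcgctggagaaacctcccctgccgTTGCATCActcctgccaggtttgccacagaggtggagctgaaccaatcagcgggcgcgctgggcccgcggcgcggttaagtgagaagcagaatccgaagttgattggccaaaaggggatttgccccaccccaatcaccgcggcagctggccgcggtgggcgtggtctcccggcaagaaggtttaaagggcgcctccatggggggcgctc

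For the other 5 genes the match is shown with up to 10 bases on each side, to set its flanks beside those of ASNS. The windows lie at chr6:150866347-150866374 on the plus strand for MTHFD1L, chr1:204412027-204412054 on the minus strand for PPP1R15B, chr12:46266503-46266530 on the minus strand for SLC38A1, chr13:29595664-29595691 on the minus strand for SLC7A1, and chr11:62881726-62881748 on the plus strand for SLC3A2, where the match is again on the opposite strand.
MTHFD1L: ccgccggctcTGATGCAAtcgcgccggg
PPP1R15B: ccgccccggcTGATGCAAcctcacgctg
SLC38A1: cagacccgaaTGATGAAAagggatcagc
SLC7A1: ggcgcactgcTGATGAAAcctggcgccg
SLC3A2: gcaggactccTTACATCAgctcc

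Positions were counted from the gene's first base in RefSeq as position 1, with no position 0. Matches began at -68 in ASNS, -129 in MTHFD1L, -209 in CHAC1, -227 in PPP1R15B, -4 in SLC38A1, 8 in SLC7A1 and 38 in SLC3A2. By the GENCODE starts the match lies inside the gene in all of these but PPP1R15B. A match is a description of letters and not of a bound site. Of the 7 genes with a match, 6 rose with Senexin B alone, against 12 of the 21 tested genes whose window held none, and this difference was not tested. Sequence outside the windows was not searched, so a window without a match does not mean a gene without the element. With TNF alone, 3 of the 7 and 7 of the 21 rose. Over all tested genes, 1.53% were higher with Senexin B alone and 5.81% with TNF alone.

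Senexin B raised most of the stress genes in cells without TNF. Of 35 tested, 22 rose, 1 fell and 12 did not pass, where 3.04% of all 13084 tested genes were called, 1.53% higher and 1.51% lower (edgeR's quasi-likelihood test, Benjamini-Hochberg adjusted p under 0.05 over all genes). Since the stress genes were chosen with earlier results of these data known, their excess over all genes was not tested. The median log2 fold change of the 35 was 0.19, beside 0.00 over all tested genes, and 32 of the 35 fitted values were above 0. The fitted values ran from -0.61 for ATF5 to 0.61 for CHAC1, which is a fold change of 1.53 for CHAC1. With TNF alone, 11 of 35 rose and 0 fell, beside 10.0% of all genes called, 5.81% higher and 4.20% lower, with a median of 0.07 beside -0.01 over all genes. TNF plus Senexin B against TNF had 10 higher and 2 lower, beside 5.45% of all genes, 2.90% higher and 2.55% lower, with a median of 0.13 beside 0.00. TNF plus Senexin B against Senexin B had 6 higher and 0 lower, beside 5.95% of all genes, 4.27% higher and 1.68% lower, with a median of 0.02 beside 0.00. In the TNF comparisons with 0 lower calls, DESeq2 also gave 0, and at an unadjusted edgeR p under 0.05 there were 0 lower with TNF alone and 2 lower with TNF plus Senexin B against Senexin B. Scaling set the balance of TNF calls over all genes: 760 were higher and 549 lower with scaling factors, and 539 were higher and 860 lower without them. With TNF plus Senexin B against Senexin B the same counts were 559 and 220 with scaling factors, and 462 and 324 without them. The mean log2 CPM of the 35 genes ran from 6.71 to 6.75 with TNF plus Senexin B, 6.53 to 6.65 with TNF, 6.65 to 6.70 with Senexin B, and 6.43 to 6.49 in control.

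Leaving out 1 library moved these counts. The 22 higher genes became 9 without Senexin B replicate 2 and 13 without Senexin B replicate 3, and ranged from 9 to 24 over the 12 such fits. Calls held in all 12 for 10 of the 23 genes: ASNS, ATF4, ATF5, CHAC1, EIF4EBP1, MTHFD2, PSAT1, SESN2, SLC38A2 and STC2. In TNF against control, calls held in all 12 for 10 of the 11 genes. In TNF plus Senexin B against TNF they held for 4 of 12, ATF5, CHAC1, DDIT4 and SLC7A1, and the 10 higher genes became 4 without TNF plus Senexin B replicate 3. Without control replicate 1 and TNF replicate 1 together, 19 rose with Senexin B, 11 with TNF, with DDIT4 gained and PSAT1 lost, and 9 with TNF plus Senexin B against TNF.

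**Figure D1:**
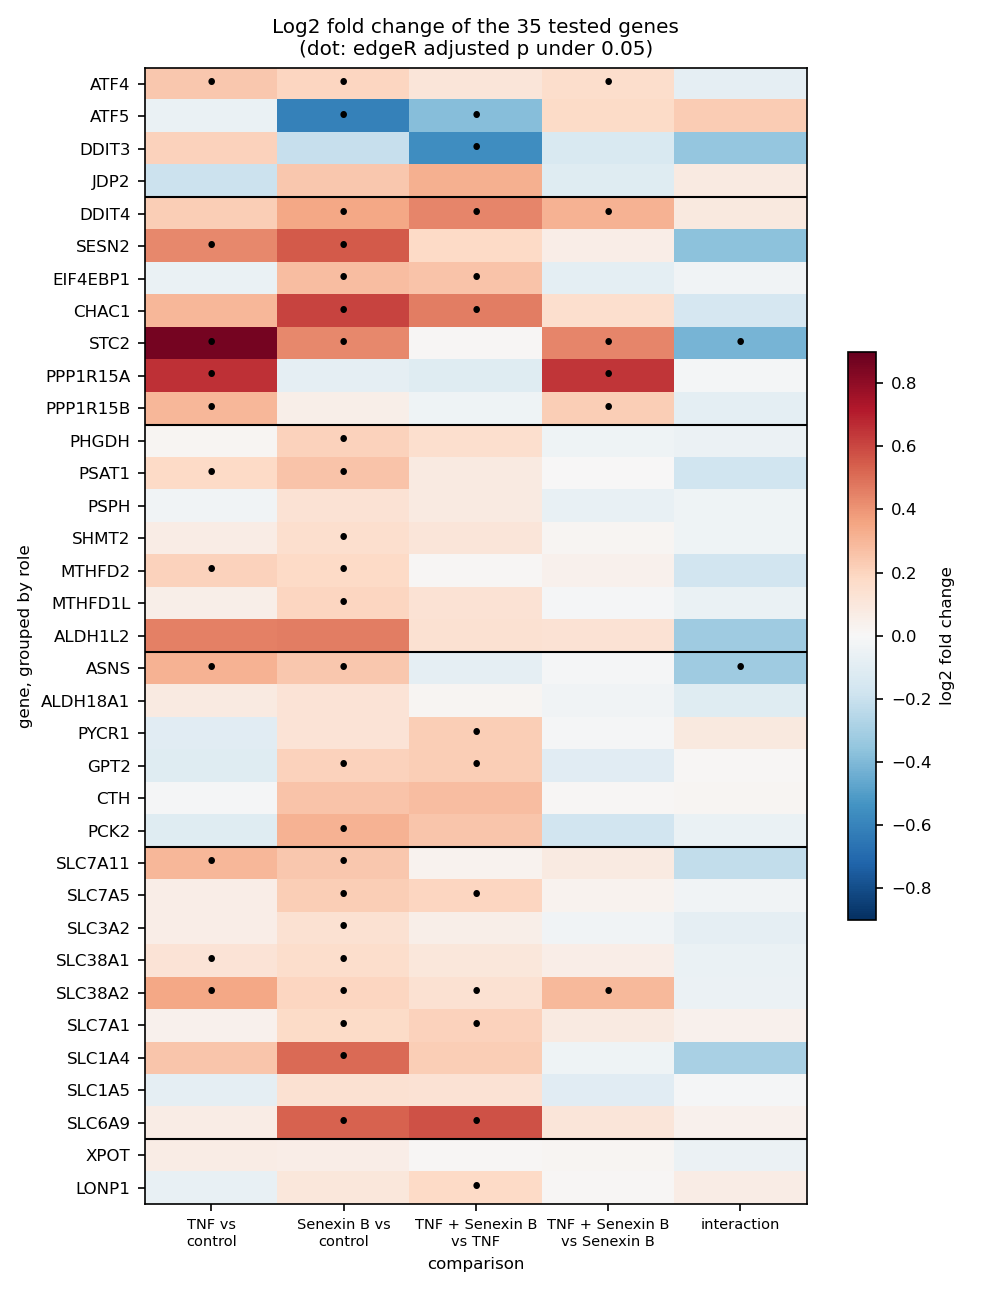
Log2 fold changes of the 35 tested genes (rows, grouped by role with black lines between roles) in 4 comparisons and their interaction (columns), with red higher and blue lower in the group named first, and dots at an edgeR adjusted p under 0.05. The Senexin B column is red with dots for 22 genes and blue with a dot for ATF5, and the interaction column has dots at STC2 and ASNS.

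The stress transcription factors did not move as 1 group. ATF4 was among the most abundant of the 38 per length of transcript, at 255 CPM per kilobase of its principal transcript in control cells, near SLC7A5 at 264, while ATF5 and DDIT3 stood at 21.6 and 13.3. ATF4 (chr22:39519695-39522685, GENCODE 29) had 635, 675 and 664 CPM with TNF plus Senexin B, 580.01, 612 and 632 with TNF, 592, 585 and 594 with Senexin B, and 508, 517 and 521 in control. Every treated library lay above every control library. ATF4 rose by 0.19 ± 0.04 with Senexin B (edgeR adjusted p = 0.000245) and by 0.24 ± 0.04 with TNF (edgeR adjusted p = 1.04e-06), as log2 fold changes ± SE. TNF plus Senexin B against TNF gave 0.11 ± 0.04 for ATF4 (edgeR adjusted p = 0.054), just outside the threshold. That value passed with the replicate number as a block (edgeR adjusted p = 0.0282) and without control replicate 1 (0.0429), TNF plus Senexin B replicate 1 (0.0434) or TNF replicate 3 (0.0307). It did not pass under the other alternatives, among them DESeq2, RLE factors and GC-corrected offsets.

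ATF5, a related bZIP factor that is also controlled at translation under stress, went the other way with the inhibitor. ATF5 had 34.7, 31.7 and 32.3 CPM with TNF plus Senexin B, 38.8, 46.0 and 43.1 with TNF, 29.1, 27.6 and 30.8 with Senexin B, and 40.6, 48.5 and 44.8 in control. All 6 libraries with Senexin B lay below all 6 without it. The log2 fold change was -0.61 ± 0.08 with Senexin B alone (edgeR adjusted p = 1.56e-07) and -0.38 ± 0.08 in the presence of TNF (edgeR adjusted p = 0.00117). In GENCODE 29, 23.7% of the exon bases of ATF5 overlap other genes, among them NUP62 and IL4I1 on the opposite strand, and the kit does not mark strand, so reads in the shared bases cannot be told apart.

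DDIT3, which encodes CHOP, a factor linked to cell death under lasting stress, had 11.7, 8.58 and 9.22 CPM with TNF plus Senexin B, 13.2, 15.9 and 14.0 with TNF, 11.2, 10.4 and 10.8 with Senexin B, and 10.6, 15.8 and 11.0 in control. The libraries of TNF plus Senexin B all lay below those of TNF, while control replicate 2 lay among the TNF libraries. DDIT3 fell by 0.56 on the log2 scale (SE 0.14) in TNF plus Senexin B against TNF (edgeR adjusted p = 0.00705) and was at -0.21 ± 0.14 with Senexin B alone (edgeR adjusted p = 0.513). DDIT3 had 73 to 133 counts a library, its call did not hold without TNF replicate 2 or TNF plus Senexin B replicate 2 (largest edgeR adjusted p = 0.072), and DESeq2 gave it no adjusted p. Of the exon bases of DDIT3, 39.6% overlap other genes, including MARS on the opposite strand. JDP2, a repressor related to the AP-1 factors, had group means between 10.8 and 14.9 CPM and gave no call, and NUPR1, a stress-induced cofactor, was too low to test.

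Stress response effectors held the largest rises called with either agent alone. Of 7 tested, 5 rose with Senexin B alone (DDIT4, SESN2, EIF4EBP1, CHAC1 and STC2) and 4 with TNF (SESN2, STC2, PPP1R15A and PPP1R15B). Over all genes, 1.53% were higher with Senexin B alone and 5.81% with TNF. STC2, a secreted glycoprotein of the stress response (chr5:173314713-173329503, GENCODE 29), had 203, 197 and 197 CPM with TNF plus Senexin B, 188, 203 and 199.96 with TNF, 150.3, 148 and 143 with Senexin B, and 112, 112 and 102 in control. The TNF libraries, with or without the inhibitor, overlapped each other and lay above all Senexin B libraries, which lay above all control libraries. STC2 rose by 0.43 ± 0.05 with Senexin B (edgeR adjusted p = 3.04e-09) and by 0.86 ± 0.05 with TNF (edgeR adjusted p = 8.93e-22), but stood at 0.01 ± 0.05 in TNF plus Senexin B against TNF (edgeR adjusted p = 0.921).

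SESN2, an inhibitor of mTORC1 that also senses leucine, had 43.8, 46.8 and 40.4 CPM with TNF plus Senexin B, 34.5, 42.9 and 37.5 with TNF, 40.0, 44.6 and 41.4 with Senexin B, and 26.4, 29.1 and 30.2 in control. Control libraries were the lowest and the 3 treated groups overlapped. SESN2 was at 0.55 ± 0.08 with Senexin B (edgeR adjusted p = 4.23e-06), 0.43 ± 0.09 with TNF (edgeR adjusted p = 0.000233) and 0.18 ± 0.08 with TNF plus Senexin B against TNF (edgeR adjusted p = 0.208). CHAC1, an enzyme that degrades glutathione, had 22.4, 23.6 and 23.2 CPM with TNF plus Senexin B, 13.9, 19.3 and 16.4 with TNF, 20.3, 22.8 and 19.5 with Senexin B, and 12.0, 15.3 and 13.4 in control. All 6 Senexin B libraries lay above all 6 others, with a log2 fold change of 0.61 ± 0.11 without TNF (edgeR adjusted p = 0.000178) and 0.46 ± 0.11 with it (edgeR adjusted p = 0.00368).

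DDIT4, also called REDD1, is a further inhibitor of mTORC1, and it had 54.1, 52.2 and 53.0 CPM with TNF plus Senexin B, 30.5, 42.8 and 42.1 with TNF, 40.1, 48.5 and 40.1 with Senexin B, and 31.7, 35.4 and 33.6 in control. It was highest with TNF plus Senexin B, at 0.44 ± 0.09 against TNF (edgeR adjusted p = 0.000579) and 0.31 ± 0.08 against Senexin B (edgeR adjusted p = 0.0104), and stood at 0.35 ± 0.09 with Senexin B alone (edgeR adjusted p = 0.0154). The call with Senexin B alone did not hold without control replicate 1 or 3 or Senexin B replicate 2 (largest edgeR adjusted p = 0.185), and that against Senexin B without Senexin B replicate 1 or 3 or TNF plus Senexin B replicate 1 (largest 0.108). DDIT4-AS1, on the opposite strand, covers 41.2% of the exon bases of DDIT4. EIF4EBP1, which encodes the translation repressor 4E-BP1, had 69.7, 72.7 and 77.6 CPM with TNF plus Senexin B, 53.4, 65.9 and 63.4 with TNF, 79.9, 76.6 and 78.1 with Senexin B, and 63.6, 65.0 and 64.0 in control. Its log2 fold change was 0.28 ± 0.06 without TNF (edgeR adjusted p = 0.00207) and 0.26 ± 0.06 with it (edgeR adjusted p = 0.00799), the second not held without TNF replicate 1 or TNF plus Senexin B replicate 3 (largest 0.0929) and with GC-corrected offsets.

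PPP1R15A, also known as GADD34, and PPP1R15B are the regulatory subunits that direct a phosphatase to eIF2 and so end the response. They moved with TNF and gave no call with the inhibitor. PPP1R15A had 68.2, 68.1 and 65.5 CPM with TNF plus Senexin B, 62.6, 76.2 and 76.3 with TNF, 43.2, 43.9 and 42.5 with Senexin B, and 43.8, 50.2 and 43.0 in control, so all 6 TNF-treated libraries lay above all 6 others. It rose by 0.66 ± 0.07 with TNF (edgeR adjusted p = 4.31e-11) and by 0.64 ± 0.07 with TNF in the presence of Senexin B (edgeR adjusted p = 1.08e-10), and was at -0.08 ± 0.07 with Senexin B alone (95% interval -0.23 to 0.06). PPP1R15B had 220.4, 217 and 202 CPM with TNF plus Senexin B, 232, 208 and 219 with TNF, 186, 187 and 177 with Senexin B, and 177, 184 and 171 in control, again with every TNF-treated library above every other. It was at 0.30 ± 0.05 and 0.22 ± 0.05 in the same TNF comparisons (edgeR adjusted p = 1.39e-06 and 0.000519) and at 0.05 ± 0.05 with Senexin B alone (95% interval -0.05 to 0.14).

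**Figure D2:**
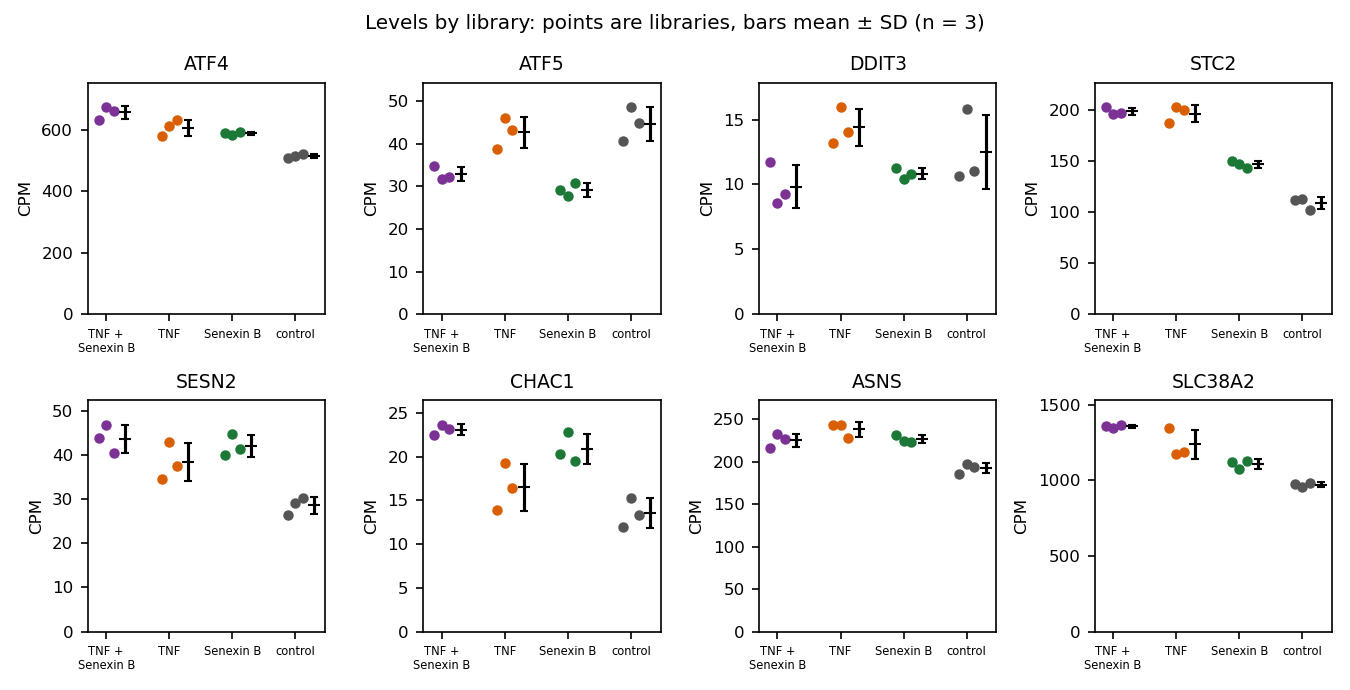
Counts scaled to 1000000 per library (CPM, y axis from 0) of 8 genes in each of the 12 libraries (points), with the mean ± SD of the 3 libraries of a group beside them. ATF5 is lower in both Senexin B groups, CHAC1 is higher in both, STC2 is near 197 to 199 CPM in both TNF groups, and ASNS is lowest in control.

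Serine and one-carbon enzymes rose with Senexin B by small amounts. Of 7 tested, 5 rose with Senexin B alone, 2 with TNF alone, and 0 changed in TNF plus Senexin B against TNF, where 3 were higher at an unadjusted edgeR p under 0.05 and 0 passed by DESeq2. Over all genes, 3.04%, 10.0% and 5.45% were called in these comparisons. At 5.45%, a count of 0 among 7 is near the share over all genes. All 7 fitted values were above 0 in TNF plus Senexin B against TNF. PHGDH commits glucose carbon to serine, PSAT1 and PSPH complete its synthesis, and SHMT2, MTHFD2, MTHFD1L and ALDH1L2 handle the resulting one-carbon units in mitochondria. PSAT1 had 344, 344 and 336 CPM with TNF plus Senexin B, 341, 309 and 318 with TNF, 348, 337 and 336 with Senexin B, and 269, 296 and 287 in control. Every control library lay below every treated one. PSAT1 rose by 0.26 ± 0.04 with Senexin B (edgeR adjusted p = 1.24e-05) and by 0.18 ± 0.04 with TNF (edgeR adjusted p = 0.00147, and 0.0946 without control replicate 1 and TNF replicate 1 together). MTHFD2 had 571, 599 and 577 CPM with TNF plus Senexin B, 587, 573 and 572 with TNF, 561, 572 and 565 with Senexin B, and 484, 523 and 488 in control, also with every control library below every treated one. It rose by 0.18 ± 0.04 with Senexin B (edgeR adjusted p = 0.000537) and 0.21 ± 0.04 with TNF (edgeR adjusted p = 1.31e-05), and was at 0.01 ± 0.04 with TNF plus Senexin B against TNF (95% interval -0.06 to 0.08).

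The other 3 of these 5 rose with Senexin B alone. PHGDH had 136, 145 and 135 CPM with TNF plus Senexin B, 110.3, 130.5 and 131 with TNF, 138, 142 and 146 with Senexin B, and 119, 121 and 128 in control. SHMT2 had 338, 335 and 336 CPM with TNF plus Senexin B, 300.1, 311 and 321 with TNF, 331, 332 and 329.9 with Senexin B, and 285, 299 and 307 in control. MTHFD1L had 185, 204 and 195 CPM with TNF plus Senexin B, 173, 177 and 182 with TNF, 190.03, 199 and 198 with Senexin B, and 166, 176 and 172 in control. In each of these genes the Senexin B libraries lay above the control libraries, with log2 fold changes of 0.21 ± 0.05 for PHGDH, 0.15 ± 0.04 for SHMT2 and 0.19 ± 0.05 for MTHFD1L (edgeR adjusted p = 0.0118, 0.0132 and 0.0064). The PHGDH call did not hold without control replicate 1 or 2 or Senexin B replicate 2 or 3 (largest edgeR adjusted p = 0.103), the SHMT2 call without control replicate 1 or Senexin B replicate 1, 2 or 3 (largest 0.122) and the MTHFD1L call without Senexin B replicate 2 or 3 (largest 0.0576). PSPH gave no call, with group means between 54.9 and 60.5 CPM, and its pseudogene PSPHP1 held 30 to 61 counts a library that could have been shared with it. ALDH1L2, at 3 to 16 counts a library, was too low for changes of this size to be detectable.

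Among the other enzymes, 3 of 6 tested rose with Senexin B alone, beside 1.53% of all genes. ASNS makes asparagine from aspartate (chr7:97852118-97872542, GENCODE 29), and it had 217, 232 and 227 CPM with TNF plus Senexin B, 244, 244 and 229 with TNF, 232, 225 and 224 with Senexin B, and 186, 198 and 194 in control. The control libraries were the lowest, and the TNF plus Senexin B libraries overlapped those with either agent alone. ASNS rose by 0.24 ± 0.04 with Senexin B (edgeR adjusted p = 0.000229) and by 0.31 ± 0.04 with TNF (edgeR adjusted p = 2.38e-07), and stood at -0.08 ± 0.04 in TNF plus Senexin B against TNF (edgeR adjusted p = 0.313). AC079781.5, annotated on the same strand, shares 44.6% of the exon bases of ASNS, and how reads in shared bases were assigned is not given in the sources used here.

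GPT2 and PCK2 link amino acids to the mitochondrial carbon supply, through alanine transamination and phosphoenolpyruvate synthesis. GPT2 had 73.6, 70.4 and 79.7 CPM with TNF plus Senexin B, 60.5, 64.5 and 66.6 with TNF, 79.3, 80.7 and 79.3 with Senexin B, and 71.0, 67.0 and 69.2 in control. PCK2 had 31.0, 31.2 and 32.7 CPM with TNF plus Senexin B, 26.9, 26.9 and 26.3 with TNF, 34.2, 38.7 and 34.1 with Senexin B, and 27.1, 29.4 and 29.5 in control. In both the Senexin B libraries lay above the control libraries, at 0.21 ± 0.06 for GPT2 and 0.31 ± 0.08 for PCK2 (edgeR adjusted p = 0.0286 and 0.0153). The GPT2 call did not hold without Senexin B replicate 1, 2 or 3 or control replicate 2 or 3 (largest edgeR adjusted p = 0.132), the PCK2 call without control replicate 1 or Senexin B replicate 2 (largest 0.16), and both by DESeq2.

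In cells with TNF, GPT2 and PYCR1 rose with Senexin B. PYCR1, which completes proline synthesis, had 286, 287 and 274 CPM with TNF plus Senexin B, 209.8, 266 and 249.6 with TNF, 281, 291 and 278 with Senexin B, and 242, 268 and 271 in control. TNF replicate 1 was its lowest library, and PYCR1 has a GC content of 61.8%. TNF plus Senexin B against TNF gave 0.22 ± 0.06 for PYCR1 and 0.22 ± 0.06 for GPT2 (edgeR adjusted p = 0.0362 and 0.0191). Neither call held without TNF replicate 1. That of GPT2 was also lost without TNF plus Senexin B replicate 3 (largest edgeR adjusted p = 0.178) and with GC-corrected offsets. That of PYCR1 did not hold without Senexin B replicate 1, TNF replicate 1 or 3 or TNF plus Senexin B replicate 1, 2 or 3 (largest edgeR adjusted p = 0.12). The PYCR1 call was kept with GC-corrected offsets and without control replicate 1 and TNF replicate 1 together. ALDH18A1, an earlier enzyme of proline synthesis, and CTH, which makes cysteine from cystathionine, gave no call in any comparison.

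Of 9 amino acid transporters, 8 rose with Senexin B alone in edgeR and 5 by DESeq2, and SLC38A2 was the only one whose call held in all 12 fits that left out 1 library. SLC1A5, a glutamine carrier, was not called, at 0.14 ± 0.05 (edgeR adjusted p = 0.0802). It passed under 6 alternatives (smallest edgeR adjusted p = 0.00849, largest 0.0366): with the replicate block, with GC-corrected offsets alone or with the block, with the compared groups alone, with no low-count filter and without TNF replicate 1. With TNF alone 3 rose, and in TNF plus Senexin B against TNF 4 rose. Over all genes, 1.53% were higher with Senexin B alone, 5.81% with TNF and 2.90% in TNF plus Senexin B against TNF. SLC38A2, also called SNAT2, imports small neutral amino acids and had 1361, 1348 and 1367 CPM with TNF plus Senexin B, 1349, 1175 and 1188 with TNF, 1121, 1074 and 1131 with Senexin B, and 975, 957 and 985 in control. Control libraries were the lowest, then Senexin B, and the TNF groups were higher still, with TNF replicate 1 within the range of TNF plus Senexin B. SLC38A2 was at 0.19 ± 0.04 with Senexin B and 0.35 ± 0.04 with TNF (edgeR adjusted p = 0.000512 and 1.03e-10). TNF plus Senexin B gave 0.14 ± 0.04 against TNF (edgeR adjusted p = 0.0145, not held without TNF plus Senexin B replicate 1 or 3 or TNF replicate 2 or 3, largest 0.122) and 0.29 ± 0.04 against Senexin B (edgeR adjusted p = 1.01e-08).

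SLC7A5, the light chain of the leucine carrier LAT1, had 1414, 1440.1 and 1417 CPM with TNF plus Senexin B, 1126, 1342 and 1278 with TNF, 1343, 1450.4 and 1386 with Senexin B, and 1137, 1229.9 and 1233 in control. The libraries with Senexin B lay above those without it both in the absence and in the presence of TNF. SLC7A5 was at 0.22 ± 0.05 without TNF and 0.19 ± 0.05 with it (edgeR adjusted p = 0.0119 and 0.0224). The first call did not hold without Senexin B replicate 2 (0.054) and the second without TNF plus Senexin B replicate 1, 2 or 3 (largest 0.0647). SLC3A2, the heavy chain that partners SLC7A5 and SLC7A11, had 455, 458 and 465 CPM with TNF plus Senexin B, 416, 464 and 447 with TNF, 454, 476 and 476 with Senexin B, and 401, 428 and 448 in control, with Senexin B libraries above control libraries. Its call with Senexin B, at 0.14 ± 0.04 (edgeR adjusted p = 0.0407), was the closest of the 22 to the threshold and did not hold without control replicate 1 or 2, Senexin B replicate 2 or 3, TNF plus Senexin B replicate 2 or 3 or TNF replicate 3 (largest 0.319) and by DESeq2.

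SLC7A11, the cystine carrier xCT, had 135, 139 and 125 CPM with TNF plus Senexin B, 139, 128 and 125 with TNF, 115, 131 and 129 with Senexin B, and 117, 103 and 97.2 in control. Control replicate 1 lay above Senexin B replicate 1, and the log2 fold change with Senexin B was 0.24 ± 0.06 (edgeR adjusted p = 0.0104, not held without control replicate 2 or 3 or Senexin B replicate 2 or 3, largest 0.124). With TNF, SLC7A11 rose by 0.30 ± 0.06 (edgeR adjusted p = 0.00033). SLC38A1, a glutamine carrier, had 573, 556 and 555 CPM with TNF plus Senexin B, 552, 512 and 509.9 with TNF, 519, 539 and 551 with Senexin B, and 504, 479 and 463 in control, with control libraries the lowest. It was at 0.16 ± 0.04 with Senexin B (edgeR adjusted p = 0.00878, not held without Senexin B replicate 2 or 3 or control replicate 3, largest 0.107) and 0.12 ± 0.04 with TNF (edgeR adjusted p = 0.0293). That TNF call did not hold without TNF replicate 1 or control replicate 2 or 3 (largest 0.212), by DESeq2, with GC-corrected offsets, without scaling factors, and when only these 2 groups were fitted.

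SLC7A1, a carrier of arginine and lysine, had 336, 326 and 327 CPM with TNF plus Senexin B, 270.3, 287 and 293 with TNF, 303, 321 and 312 with Senexin B, and 274, 279.7 and 278 in control. The Senexin B libraries lay above their matched groups both without and with TNF, at 0.17 ± 0.04 and 0.21 ± 0.04 (edgeR adjusted p = 0.00604 and 0.000215). The first did not hold without Senexin B replicate 2 (0.0814). SLC6A9, the glycine carrier GlyT1, was far less abundant and had 9.88, 9.52 and 10.8 CPM with TNF plus Senexin B, 6.42, 6.25 and 7.57 with TNF, 9.49, 9.67 and 8.99 with Senexin B, and 7.68, 6.17 and 5.75 in control. All 6 Senexin B libraries lay above all 6 others, at 0.53 ± 0.15 without TNF and 0.57 ± 0.15 with it (edgeR adjusted p = 0.0315 and 0.013). The first did not hold without Senexin B replicate 1, 2 or 3 or control replicate 2 or 3 (largest 0.177), and the second without TNF replicate 2 or TNF plus Senexin B replicate 3 (largest 0.0773). DESeq2 lost the first and gave no adjusted p for the second. SLC1A4, a carrier of serine and alanine, had 9.52, 11.5 and 13.7 CPM with TNF plus Senexin B, 11.1, 9.32 and 9.77 with TNF, 11.7, 11.9 and 12.2 with Senexin B, and 6.33, 7.95 and 10.5 in control, with Senexin B libraries above control libraries. It was at 0.51 ± 0.15 with Senexin B (edgeR adjusted p = 0.035), not held without control replicate 1 or 2 or Senexin B replicate 1, 2 or 3 (largest 0.287) and by DESeq2.

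XPOT, which exports tRNAs from the nucleus, gave no call, with group means between 252.5 and 267 CPM. LONP1, a protease of the mitochondrial matrix, had 248, 237 and 239 CPM with TNF plus Senexin B, 191, 228 and 216 with TNF, 246, 241 and 232 with Senexin B, and 214, 222 and 233 in control. TNF replicate 1 was its lowest library and LONP1 has a GC content of 62.9%. LONP1 was at 0.18 ± 0.05 in TNF plus Senexin B against TNF (edgeR adjusted p = 0.013), not held without TNF replicate 1 or TNF plus Senexin B replicate 1 (largest 0.148) and with GC-corrected offsets, and at 0.10 ± 0.05 with Senexin B alone (edgeR adjusted p = 0.269).

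The effect of Senexin B was measured on separate libraries in cells without TNF and in cells with it. Of the 22 genes that rose without TNF, 8 also rose with it (36.4% of the 22 and 80.0% of the 10): SLC6A9, EIF4EBP1, DDIT4, SLC38A2, SLC7A1, CHAC1, GPT2 and SLC7A5. Over all genes, 1.53% were higher without TNF and 2.90% with it. Of the 35 tested stress genes, 32 had a fitted value above 0 without TNF and 30 with it. A gene called in only 1 of these comparisons therefore need not differ between them. ATF5 fell in both. DDIT3 passed with TNF and not without it, and its interaction was -0.35 ± 0.20 (edgeR adjusted p = 0.808). Likewise TNF raised 11 genes without the inhibitor and 6 with it, and 5 were shared (45.5% of the 11 and 83.3% of the 6): ATF4, STC2, PPP1R15A, PPP1R15B and SLC38A2. Over all genes, 5.81% were higher with TNF without the inhibitor and 4.27% with it. Fitted values were above 0 for 25 and 21 of the 35. The overlap of calls over all genes was not counted, so these shared percentages have no background beside them.

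**Figure D3:**
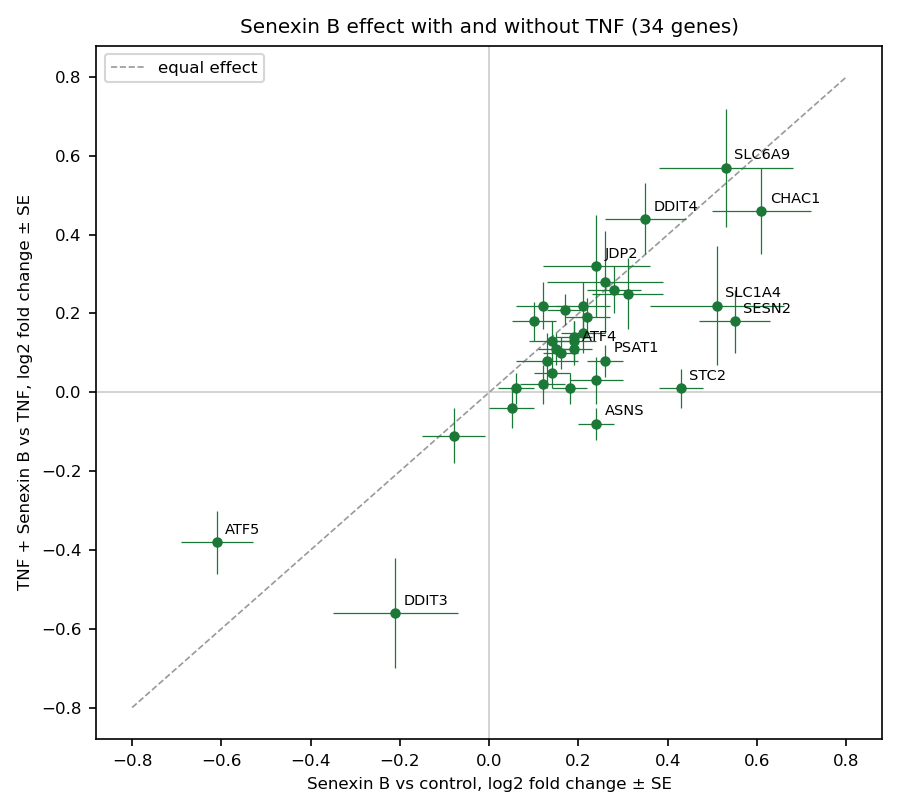
Log2 fold change ± SE with Senexin B in cells without TNF (x axis) and with TNF (y axis) for 34 genes, drawn from separate libraries, with the dashed line at equal effects; ALDH1L2 is left out for its low counts. STC2 and ASNS lie to the right of 0 on the x axis and near 0 on the y axis, and ATF5 and DDIT3 lie below 0 on both.

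The interaction asks whether Senexin B acted differently with TNF than without it. Among the 35 genes, 2 passed, both lower: STC2 at -0.42 ± 0.07 (edgeR adjusted p = 0.000375) and ASNS at -0.32 ± 0.06 (edgeR adjusted p = 0.0117). Over all 13084 genes 6 passed (0.0459%), 3 in each direction, so 0.0229% of genes were called lower. If the fold changes of the single agents had multiplied, STC2 would have averaged 266 CPM with TNF plus Senexin B and ASNS 281 CPM, against measured means of 199 ± 3.39 and 225 ± 7.83 CPM. The STC2 call held in each of the 12 fits that left out 1 library (largest edgeR adjusted p = 0.0145) and in all other alternatives run. The ASNS call did not hold without control replicate 1, Senexin B replicate 1, 2 or 3 or TNF plus Senexin B replicate 1 or 3 (largest edgeR adjusted p = 0.143), while its value lay between -0.35 and -0.28 over all alternatives run.

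At an unadjusted p under 0.05 the interaction was lower in 6 of the 35 genes and higher in 0, where 2.80% and 3.28% of all genes were lower and higher. The 6 were STC2, ASNS, SESN2 (-0.37 ± 0.12), SLC7A11 (-0.22 ± 0.08), PSAT1 (-0.18 ± 0.06) and MTHFD2 (-0.17 ± 0.05), and for the last 4 the edgeR adjusted p ran from 0.607 to 0.754. These 6 were called higher with each agent alone, which share the control libraries. The control libraries also enter the interaction, so these values are not independent. Of the 6, 4 had a GC content below the 48.4% median of all genes, with SLC7A11 at 35.4%, MTHFD2 at 41.4%, PSAT1 at 42.3% and ASNS at 47.0%, while STC2 and SESN2 had 51.7% and 59.5%. With GC-corrected offsets the interaction was lower in 10 of the 35 genes, these 6 among them, and higher in 0, beside 2.89% and 3.03% of all genes. ATF5, at 0.23 ± 0.11, lay just outside in the main fit (edgeR unadjusted p = 0.0501). With RLE factors the same 6 were lower and ATF5 was higher, beside 2.74% and 3.41% of all genes. ATF5 was also higher with no factors, other low-count filters or the replicate block, and without TNF replicate 2, where PYCR1 was higher too. The same held for ATF5 without control replicate 1, alone or together with TNF replicate 1. It held as well without Senexin B replicate 3 and without TNF plus Senexin B replicate 2. For most other genes the interval of the interaction was wide beside the effects: it was -0.45 to 0.16 for CHAC1, -0.38 to 0.46 for SLC6A9 and -0.18 to 0.02 for ATF4.

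**Figure D4:**
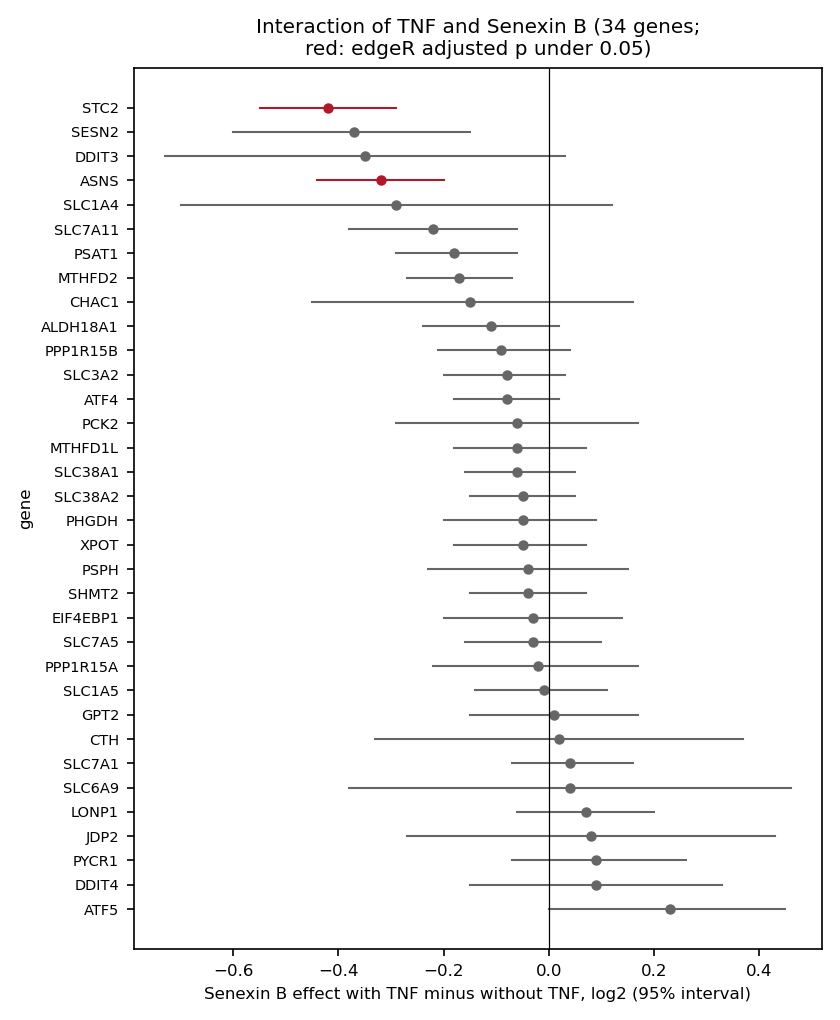
Interaction of TNF and Senexin B on the log2 scale (points) with 95% intervals (lines) for 34 genes, ordered from the lowest at the top. Values below 0 mean a lower log2 fold change with Senexin B in cells with TNF, which for DDIT3 was a larger fall. ALDH1L2 is left out. STC2 and ASNS, in red, are the genes with an edgeR adjusted p under 0.05.

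Other genes of the response were read from lists. Over all genes, 3.04% were called with Senexin B alone, 10.0% with TNF and 5.45% in TNF plus Senexin B against TNF. At 3.04%, a count of 0 in a list of 14 is near the share over all genes. Of 14 genes for eIF2 kinases and eIF2 factors, 0 passed with Senexin B alone in edgeR, where 1 was higher at an unadjusted p under 0.05 and 0 passed by DESeq2, and 4 rose with TNF: EIF2AK2, the kinase PKR, at 0.18 ± 0.05, and the eIF2 subunit genes EIF2S1, EIF2S2 and EIF2S3 at 0.21 ± 0.04, 0.15 ± 0.04 and 0.18 ± 0.04. The EIF2AK2 call with TNF did not hold without TNF replicate 1 or control replicate 3 (largest edgeR adjusted p over all alternatives 0.122) and with GC-corrected offsets. EIF2AK2 fell by 0.22 (SE 0.05) in TNF plus Senexin B against TNF (edgeR adjusted p = 0.00282). Of 14 tested partners and targets of ATF4 outside the 38, 3 rose and 1 fell with Senexin B alone. TRIB3, a pseudokinase induced by ATF4, had 97.0, 96.4 and 91.1 CPM with TNF plus Senexin B, 61.0, 63.2 and 67.4 with TNF, 97.1, 97.7 and 101 with Senexin B, and 64.0, 71.1 and 68.5 in control, so that all 6 libraries with Senexin B lay above all 6 without it. CEBPG, a bZIP partner of ATF4, rose by 0.21 ± 0.05, the angiogenic factor gene VEGFA by 0.31 ± 0.08, and SQSTM1, an autophagy receptor gene, fell by 0.24 (SE 0.04). The CEBPG call did not hold without control replicate 1 or 3 or any 1 Senexin B library (largest edgeR adjusted p = 0.162), and the VEGFA call without control replicate 1 or Senexin B replicate 1 or 3 (largest 0.2). With TNF, 7 of these 14 rose and 1 fell, led by TNFRSF10B at 0.80 ± 0.04, ATF3 at 1.46 ± 0.09, SQSTM1 at 0.71 ± 0.04 and BBC3 at 1.06 ± 0.12. In TNF plus Senexin B against TNF, 4 rose and 1 fell, of which TRIB3 at 0.57 ± 0.06, VEGFA at 0.37 ± 0.08, CEBPB at 0.39 ± 0.09 and SQSTM1 at -0.34 ± 0.04 had the smallest adjusted p.

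Enzymes and carriers of the same kinds outside the 38 were read in the same way, beside 3.04% of all genes called with Senexin B and 10.0% with TNF. Of 16 tested folate, glycine and proline enzymes, 1 rose with Senexin B alone (GOT1, an aspartate aminotransferase, at 0.17 ± 0.05, edgeR adjusted p = 0.0449, and 0 by DESeq2) and 0 changed with TNF, where 1 was lower at an unadjusted edgeR p under 0.05 and 0 passed by DESeq2. Of 15 tested amino acid transporters outside the 38, 0 passed with Senexin B alone (3 at an unadjusted edgeR p under 0.05, 1 of them higher, and 0 by DESeq2), at a median of -0.02 beside 0.00 over all genes, and SLC1A3, a glutamate carrier, rose with TNF at 0.24 ± 0.08 (edgeR adjusted p = 0.049, and 0 by DESeq2). The GOT1 call did not hold in 11 alternatives (largest adjusted p = 0.177) and the SLC1A3 call in 18 (largest 0.29), and both were lost without control replicate 1 or without control replicate 2. Differences between these lists and the 38 were not tested, since the 38 were chosen with earlier results of these data known.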

How the data were processed

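RNA-seq was done on 12 HCT116 libraries made with a kit that does not mark strand. The authors deposited a table of whole-number counts per gene symbol. STAR 2.4, SAMtools 1.2, featureCounts and Subread 1.4.6 are named, with GRCh38, per the submitters' processing notes, which give no role or settings. The annotation release is not given in the sources used here, so gene positions, GC content and overlaps come from GENCODE 29, matched by symbol. Columns were assigned to samples by their titles.

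Genes were kept by filterByExpr of edgeR 4.0.16 (R 4.3.3) and scaled by TMM, and 1 quasi-likelihood fit with a coefficient per group over all 12 libraries gave 4 contrasts and the interaction. Calls have a Benjamini-Hochberg adjusted p under 0.05 over all 13084 genes. CPM are counts scaled to a library total of 1000000, SEs are Wald errors, and intervals are 1.96 SE on each side. The 38 genes, the other lists and the motif were chosen with earlier results of these data known. Per-library values are given for genes called in at least 1 contrast with TNF or Senexin B against its own reference or in the interaction, and from each other list at most 4 called genes per contrast, by adjusted p. No pair of replicate libraries agreed within counting noise (chi-square per degree of freedom 1.21 to 2.76). The labels call the replicates biological without naming separate cultures, so p-values measure the spread between these libraries. The fit was tested on simulated data. Alternatives were RLE factors, no factors, DESeq2 1.42.0, other low-count filters, the compared groups alone, a replicate block, GC-corrected offsets (lowess span 0.3), and libraries left out.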

Additional observations from a re-analysis of the deposited data

Results flagged for a closer look

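STC2 was flagged because the effect of Senexin B differed between cells with and without TNF by a test of the difference itself, the edgeR interaction, which was -0.42 on the log2 scale (edgeR adjusted p = 0.000375). The Senexin B effect was 0.01 ± 0.05 in cells with TNF and 0.43 ± 0.05 in cells without it.

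ASNS was flagged by the same test, at -0.32 (edgeR adjusted p = 0.0117). The Senexin B effect was -0.08 ± 0.04 in cells with TNF and 0.24 ± 0.04 in cells without it.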

How the results depend on the processing

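Over all alternatives, 1965 of 2122 values (genes called in the comparison and other genes given a value in the text) kept their direction and side of the threshold, 147 were no longer called, 10 became called (4 of ATF4 in TNF plus Senexin B against TNF and 6 of SLC1A5 with Senexin B), and 0 reversed. Over the 35 tested genes as a whole, alternatives added calls for 3 genes with Senexin B (ALDH18A1, PYCR1 and SLC1A5), 7 with TNF (CHAC1, DDIT4, PYCR1, SHMT2, SLC1A5, SLC3A2 and SLC7A5), 6 in TNF plus Senexin B against TNF (ATF4, MTHFD1L, PHGDH, PSAT1, SLC1A5 and SLC38A1), 1 against Senexin B (SLC7A5) and 0 in the interaction. Leaving out 1 library, the higher counts ranged from 9 to 24 with Senexin B, 10 to 13 with TNF, 4 to 11 in TNF plus Senexin B against TNF and 5 to 6 against Senexin B. The lower counts ranged from 0 to 2 with TNF (2 without TNF replicate 2, PYCR1 and SLC1A5), 1 to 2 in TNF plus Senexin B against TNF (1 without TNF replicate 2 or TNF plus Senexin B replicate 2) and 1 to 2 for the interaction. DESeq2 gave 1 lower gene in TNF plus Senexin B against TNF, against 2 in edgeR, since it gave DDIT3 no adjusted p, and 17 higher with Senexin B. The longer motif was in 1 promoter, against 7. GC-corrected offsets gave 15 higher genes with TNF and 9 in TNF plus Senexin B against TNF. Deviations of same-numbered libraries of different groups correlated at r from -0.01 to 0.1 (18 pairs, median 0.02). Other pairs of different groups ran from -0.08 to 0.05 (36 pairs, median -0.01). A weak effect shared by same-numbered libraries is therefore not excluded. The replicate block gave 14 higher genes in TNF plus Senexin B against TNF and 23 with Senexin B, and left 11 with TNF. Over all genes the block called 1470 with TNF (1309 without it) and 479 with Senexin B (398). Over all genes, DESeq2 called 850 with TNF (1309 in edgeR) and 475 in TNF plus Senexin B against TNF (713), GC-corrected offsets with the block called 720 with Senexin B (398), and leaving out 1 library gave as few as 876, 451 and 236. The interaction has no value when only the compared groups are fitted. At 3 to 16 counts a library ALDH1L2 had an SE of up to 0.66, and NUPR1, VLDLR and CBS could not be tested. The causes of these shifts were not tested.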
